A study of Mus musculus with 81 samples.

Results

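The genes described here are the heat shock proteins of the cytosol, measured in the hearts of BXD mice and of both parent strains on chow and on high fat feed. The list holds 10 genes: Hspa1a, Hspa1b, Hspa8, Hsph1, Hsp90aa1, Hsp90ab1, Dnaja1, Dnajb1, Hspb1 and Cryab. Among the probe sets that carry a gene's symbol and no other, the one whose mean was greatest across the 81 arrays was read. RefSeq places Hspa1a and Hspa1b on chromosome 17, Hsph1 and Hspb1 on chromosome 5, Dnajb1 on 8, Hspa8 and Cryab on 9, and Hsp90aa1 on 12. A probe set of this kind was found for 8 of the 10 genes, out of 22180 genes in all. Dnaja1 shared its probe set with a second symbol, and no probe set paired with Hsp90ab1 alone was found, so both genes are not analysed here. The study hybridised RNA from hearts of 42 strains: the parents C57BL/6J and DBA/2J, and BXD strains, which are inbred lines descended from a cross of those parents. Each strain and diet was represented by 1 array, on which the RNA of about 5 males was pooled. All animals were 29 weeks old and fasted overnight before the hearts were taken and perfused. There were 42 chow pools and 39 high fat pools, and 39 strains (37 BXD strains and the 2 parents) had both. The other 3 BXD strains had a chow pool alone. Because every array is a pool, the spread between animals is not seen, and each p-value below rests on differences between pools.

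Heat shock proteins are chaperones, which hold unfolded proteins, refold them or pass them on for degradation. Hsp70 proteins bind short stretches of unfolded chain, Hsp40 proteins such as Dnajb1 deliver clients and start the ATPase cycle, and Hsp110 proteins such as Hsph1 release the nucleotide. Hsp90 proteins act late, on kinases, steroid receptors and other nearly folded clients, and small heat shock proteins such as Hspb1 and Cryab hold unfolding proteins without using ATP. When unfolded protein builds up, the transcription factor Hsf1 is freed from chaperones, binds heat shock elements and raises the inducible genes. In the heart, Cryab and Hspb1 are abundant in the myocytes, where Cryab sits at the Z-disc and on desmin filaments.

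The promoters are shown first, because several of these genes move together below and are textbook targets of Hsf1. RefSeq sequence (GRCm38.p6) for the 250 bases before the start of transcription was at hand for 5 of the 8 genes. The heat shock element was searched as 2 inverted units, with the letters GAANNTTC or TTCNNGAA on either strand. These letters stand in 12.8% of the 32851 upstream windows in the RefSeq table, and capitals mark them in the 4 windows printed here. The windows of Hspa1a (chr17:34972157-34972406, minus strand) and Hspa1b (chr17:34959239-34959488, minus strand) are shown for their likeness. That of Hsph1 (chr5:149636337-149636586, minus strand) is of the first of the start sites listed, and that of Hspb1 (chr5:135887669-135887918, plus strand) is the small heat shock protein with an entry.
Hspa1a: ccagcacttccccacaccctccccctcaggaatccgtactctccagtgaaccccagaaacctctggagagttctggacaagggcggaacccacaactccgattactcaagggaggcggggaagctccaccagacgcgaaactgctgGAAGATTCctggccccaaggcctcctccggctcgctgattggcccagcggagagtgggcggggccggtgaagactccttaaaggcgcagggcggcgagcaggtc
Hspa1b: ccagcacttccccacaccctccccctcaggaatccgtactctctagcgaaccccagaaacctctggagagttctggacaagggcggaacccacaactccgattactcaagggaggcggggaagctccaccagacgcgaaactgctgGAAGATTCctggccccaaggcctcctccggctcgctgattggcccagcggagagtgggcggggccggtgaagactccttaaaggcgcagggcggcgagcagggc
Hsph1: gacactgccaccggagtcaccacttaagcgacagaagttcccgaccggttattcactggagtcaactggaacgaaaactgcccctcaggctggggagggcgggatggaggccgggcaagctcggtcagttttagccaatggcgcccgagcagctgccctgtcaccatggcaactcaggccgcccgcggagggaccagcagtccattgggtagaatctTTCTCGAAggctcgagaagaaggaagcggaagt
Hspb1: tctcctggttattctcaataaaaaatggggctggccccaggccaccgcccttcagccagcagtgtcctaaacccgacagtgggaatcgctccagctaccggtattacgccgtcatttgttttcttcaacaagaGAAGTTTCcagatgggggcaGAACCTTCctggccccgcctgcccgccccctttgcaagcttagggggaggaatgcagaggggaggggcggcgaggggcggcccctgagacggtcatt
The windows of Hspa1a and Hspa1b differed at 3 of 250 bases and held the match at the same place, 104 to 97 bases before the start. The match of Hsph1 lay nearer, 33 to 26 bases before the start. Hspb1 held 2 matches, 117 to 110 and 97 to 90 bases before the start. Neither window of Dnajb1 held the letters. The 3-unit form, GAANNTTCNNGAA or TTCNNGAANNTTC, which contains the 2-unit form, stands in 0.466% of all windows and in 0 of the 5 genes' windows. A match of letters is a description of the sequence and shows no binding.

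The deposited values are a score on a log-like scale that was set to a mean of 8 and an SD of 2 on every array. No source used here states its base or slope, so differences are in these units and no folds are given. The 6 ventricular myocyte markers were high in every pool, with a list mean between 14.55 and 15.04 units. The 6 atrial markers ranged from 8.70 to 13.88 units between pools. T cell and B cell marker lists stayed between 6.72 and 7.91 units. Fewer cells of a type and less RNA per cell cannot be told apart in such pools.

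The inducible Hsp70 genes varied far more between pools than most genes, while Hspa8 and Cryab hardly varied in the probe sets read here. Hspa1a, an inducible Hsp70, ran from 8.64 units (BXD101) through a median of 9.31 to 12.26 units (DBA/2J) in the chow pools. On high fat feed its level ran from 8.25 units (BXD73) through 9.10 to 12.57 units (BXD43). Most pools lay close to the median and a few lay far above it, on both diets. The SD of Hspa1a was 0.875 units on chow and 1.01 units on high fat, at the 99.7 and 99.8 percentile of all genes, whose median SDs were 0.196 and 0.194 units. Hspa1b, its neighbour with nearly the same protein, ran from 7.12 (BXD79) through 8.33 to 11.82 units (DBA/2J) on chow. On high fat it ran from 7.94 (BXD45) through 8.57 to 12.61 units (DBA/2J). Its SDs, 1.04 and 1.17 units, were the widest among the 8 genes. Because the 2 genes are near copies, probes of one may read transcripts of the other. Where both are counted below, the count of 2 may rest on 1 signal.

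The other stress-inducible genes spread less. Hsph1 ran from 8.68 (BXD73) through 9.41 to 10.32 units (BXD43) on chow, and from 8.78 (BXD48) through 9.43 to 10.95 units (BXD43) on high fat. Hsp90aa1, the inducible cytosolic Hsp90, ran from 9.28 (BXD79) through 9.77 to 10.32 units (DBA/2J) on chow, and from 9.79 (BXD44) through 10.02 to 10.78 units (BXD43) on high fat. Dnajb1 ran from 8.41 (BXD56) through 8.86 to 9.72 units (DBA/2J) on chow, and from 8.51 (BXD44) through 8.96 to 10.15 units (BXD43) on high fat. The highest pool of all 5 genes so far was DBA/2J or BXD43, on either diet.

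The constitutive and small heat shock genes had no such high pools. Hspa8, the constitutive Hsp70 that also strips clathrin from vesicles, ran from 14.46 (BXD98) through 14.63 to 14.82 units (BXD51) on chow. On high fat it ran from 14.51 (BXD68) through 14.72 to 15.05 units (BXD48). Its SDs, 0.0881 and 0.115 units, lay at the 0.9 and 4.9 percentile of all genes. Cryab was also tight, with SDs of 0.127 units on either diet (9.6 and 8.7 percentile), from 15.05 (BXD64) through 15.28 to 15.56 units (BXD83) on chow and from 14.92 (BXD49) through 15.29 to 15.57 units (BXD96) on high fat. Both genes lie close to the top of the scale, where the highest value on any array was 16.92 units, and whether the scale is compressed there was not tested. Hspb1 varied more, from 10.91 (BXD79) through 11.59 to 12.43 units (BXD56) on chow. On high fat it ran from 11.10 (BXD49) through 11.65 to 12.17 units (BXD50). Other probe sets with the symbol of Hspa8 or Cryab alone spread more than the ones read here. Over the 81 arrays their SDs were 0.295, 0.297 and 0.72 units for Hspa8, against 0.106 units. For Cryab the SD was 0.356 units, against 0.126 units.

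**Figure D1:**
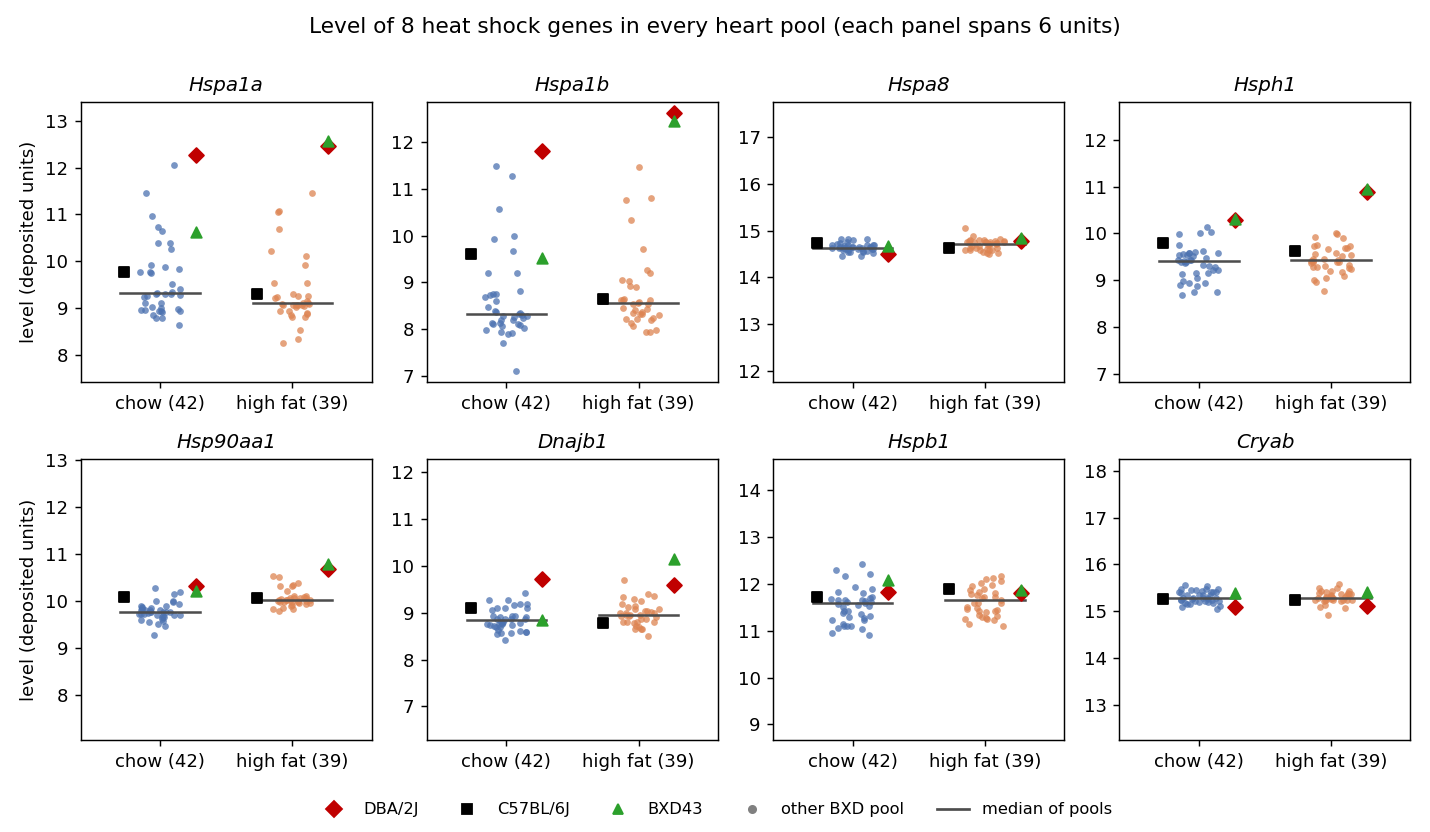
Level of each gene in every pool, in deposited units, by diet, with 42 chow and 39 high fat pools. Each point is a pool, the line is the median, and every panel spans 6 units. DBA/2J ranks 1 or 2 for Hspa1a, Hspa1b, Hsph1 and Hsp90aa1 on either diet. BXD43 does so on high fat but ranks 7 and 9 for Hspa1a and Hspa1b on chow. Hspa8 and Cryab hardly spread in the probe sets read here.

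The first comparison asked whether the parent strains differ. Both inducible Hsp70 genes were higher in DBA/2J than in C57BL/6J, by about 3 units, and the other 6 genes did not pass the test. Hspa1a stood at 9.76 units on chow and 9.30 units on high fat in C57BL/6J, and at 12.26 and 12.46 units in DBA/2J. Both DBA/2J pools lay above both C57BL/6J pools, with a difference of 2.83 ± 0.657 units (SE, n = 2 pools per parent; limma, adjusted p = 0.00791). Hspa1b stood at 9.61 and 8.64 units in C57BL/6J and at 11.82 and 12.61 units in DBA/2J. Its difference was 3.09 ± 0.835 units (limma, adjusted p = 0.0323). Among all genes, 1.28% were called higher in DBA/2J and 1.08% lower, against 2 of the 8 heat shock genes, both higher. These 2 are the near copies Hspa1a and Hspa1b, so they may amount to 1 call. With an intensity trend and robust variance in the fit, the call of Hspa1b was lost (limma, adjusted p = 0.0506).

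Among the partners of Hsp70, the DBA/2J pools were also above the C57BL/6J pools on both diets, by amounts that did not pass the test over all genes. Hsph1, the nucleotide exchange factor, read 9.79 and 9.62 units in C57BL/6J and 10.28 and 10.88 units in DBA/2J (difference 0.875 ± 0.282 units, limma adjusted p = 0.098). Dnajb1 read 9.10 and 8.77 units against 9.72 and 9.60 units (0.721 ± 0.265 units, adjusted p = 0.177). Hsp90aa1 read 10.09 and 10.05 units against 10.32 and 10.68 units (0.429 ± 0.168 units, adjusted p = 0.215). In all 3 genes the parents' pools did not overlap, and in Cryab, described next, they did not overlap in the other direction. With 2 pools of each parent, such a gap can arise by chance, so it is no support for a difference. How often the 2 pools of each parent fail to overlap over all genes was not counted.

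The remaining genes were not called between the parents. The difference of Hspa8 was -0.042 ± 0.106 units and that of Hspb1 was 0.006 ± 0.294 units (limma, adjusted p = 0.923 and 0.996). Cryab read 15.27 and 15.25 units in C57BL/6J and 15.09 and 15.11 units in DBA/2J. Its difference of -0.157 ± 0.103 units ran against that of the inducible genes and did not pass the test (limma, adjusted p = 0.572).

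Each parent has 1 pool per diet, and the spread behind these tests comes from all strains. Markers of other tissue differed between the same pools. The atrial list mean was 12.90 and 12.89 units in the C57BL/6J pools, and 9.34 on chow and 12.33 units on high fat in the DBA/2J pools. The median difference over the 6 atrial genes was -2.23 units, with 0 of 6 called by limma and 2 of 6 at an unadjusted p under 0.05. Of 7 brown adipocyte markers 1 was called, Adipoq, lower in DBA/2J (-0.906 units, limma adjusted p = 0.0447). The list mean was 10.75 and 10.26 units in C57BL/6J and 9.82 and 9.83 units in DBA/2J, and Ucp1 differed by -2.48 units without a call (adjusted p = 0.112). Of 6 mesothelial markers Krt8 alone was called (-0.687 units, adjusted p = 0.0331), and of 6 ventricular markers Tnnt2 alone (-0.353 units, adjusted p = 0.0158). The DBA/2J pools, chow then high fat, read 12.26 and 12.46 units of Hspa1a. Their atrial list means were 9.34 and 12.33 units, and their brown adipocyte list means were 9.82 and 9.83 units. The part of the atrial, brown adipocyte, mesothelial and ventricular markers in the difference of the Hsp70 genes was not tested.

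The diet difference of the parents was set against each other as well. The high fat minus chow difference of Hspa1b was 0.792 units in DBA/2J and -0.973 units in C57BL/6J, from 1 pool each. The test of this interaction called 0 of the 8 genes (limma, adjusted p = 1.0 for each; 0 of 8 also at an unadjusted p under 0.05, with 0.0971 for Hspa8 as the lowest p). Over all genes it called 0.00451%.

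The next comparison asked whether the BXD strains differ, with the chow and high fat pools of a strain as replicates. Hsph1 and Hspa1a differed between the 37 BXD strains, and in both cases BXD43 had the highest strain mean. Hsph1 had strain means from 8.88 units (BXD73) through a median of 9.46 to 10.63 units (BXD43), with BXD56 next at 9.85 units (limma F = 2.67, adjusted p = 0.0139). Hspa1a had strain means from 8.59 units (BXD73) through 9.28 to 11.59 units (BXD43), with BXD63 next at 11.02 and BXD90 at 10.66 units (F = 2.22, adjusted p = 0.0484). Of all genes, 13.4% were called in this test, against 2 of the 8 heat shock genes. The Hsph1 call was lost without BXD43 (adjusted p = 0.178). The Hspa1a call was lost in 24 of the 37 fits that left out 1 strain each, with adjusted p-values between 0.017 and 0.117 over the 37 fits.

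BXD43 was high in several genes at once. Its strain mean was also the highest for Hspa1b (10.98 units), Hsp90aa1 (10.50 units) and Dnajb1 (9.50 units). Its high fat pool was above its chow pool in each of these 5 genes. Hspa1a stood at 10.61 units on chow and 12.57 units on high fat there, and Hspa1b at 9.51 and 12.45 units. Dnajb1 was high there on high fat alone, at 10.15 units. The BXD43 chow pool read 8.85 units of Dnajb1, rank 22 of 42, where the chow median was 8.86 units. In BXD43 the atrial list lay at 13.01 units on chow and 12.43 units on high fat, where the pools ran widely, from 8.70 to 13.88 units. The part of atrial tissue in the BXD43 values was not tested. Without DBA/2J and BXD43, a choice made after their values were seen, 0 of the 8 genes were called between strains (limma, lowest adjusted p 0.0947 for Cryab; 3 of 8 at an unadjusted p under 0.05).

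In other strains the chow and high fat pools disagreed. BXD49 had 12.05 units of Hspa1a on chow and 9.07 units on high fat. BXD84 had 11.45 units on chow and 9.06 units on high fat. BXD90 ran the other way, from 9.88 to 11.45 units, and BXD63 had 10.97 and 11.07 units. High values thus came in both pools of DBA/2J and BXD63, but in the chow pool alone of BXD49 and BXD84. The intraclass correlation, which is 1 where the pools of a strain agree fully, was 0.301 for Hspa1a and 0.147 for Hspa1b, against a median of 0.144 over all genes.

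Across the 39 strains with both diets, the chow level of Hspa1a and its high fat level had r = 0.46 (permutation p = 0.0042; rho = 0.45, permutation p = 0.00395). Without DBA/2J and BXD43 the r was 0.23. For Hsph1 the r was 0.51 over all strains and 0.24 without those strains. For Cryab it was 0.47 and 0.43. The intraclass correlation of Cryab, 0.431, was the highest among the 8 genes, and its strain test lay just outside the threshold (F = 2.08, limma adjusted p = 0.0699). Its strain means ran from 15.10 units (BXD61) to 15.52 units (BXD96), a narrow range. Cryab passed the threshold under 5 of the processing alternatives planned and in its other probe set. Dnajb1, Hspb1 and Hspa8 had intraclass correlations of -0.0151, 0.0997 and 0.203, and none was called between strains (adjusted p = 0.583, 0.316 and 0.497).

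**Figure D2:**
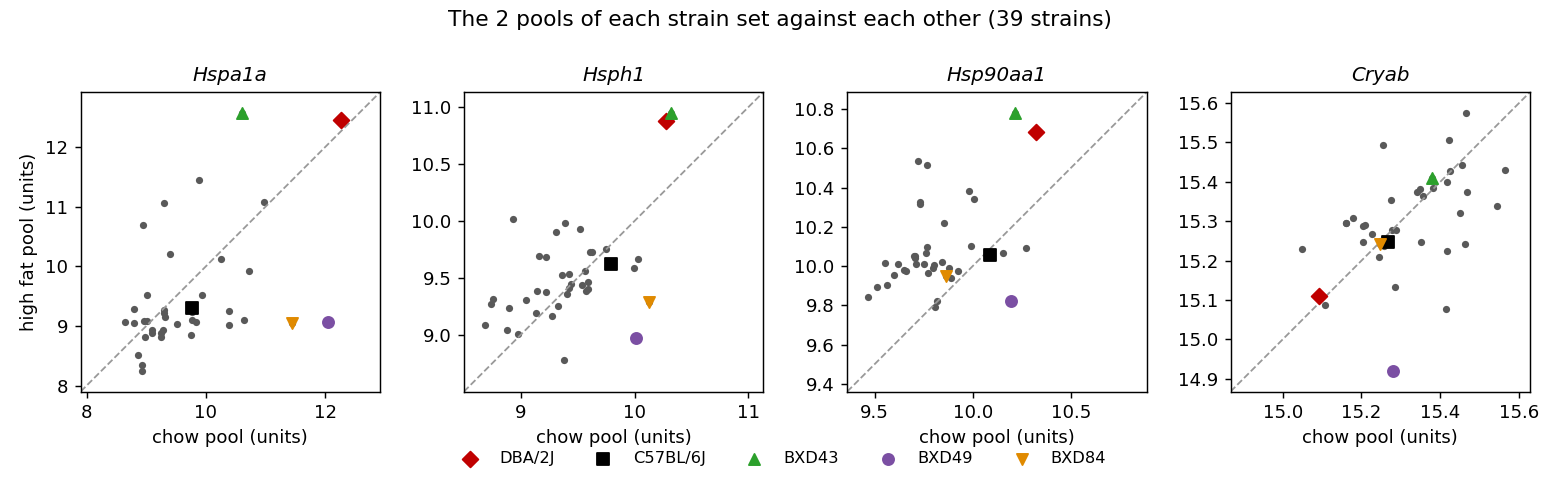
Level in the high fat pool (vertical) against the chow pool (horizontal) of each of 39 strains, in deposited units, with the line of equal levels. DBA/2J is high on both axes for Hspa1a, Hsph1 and Hsp90aa1, BXD43 is highest on the high fat axis for all 3, BXD49 and BXD84 are high for Hspa1a on chow alone, and Cryab pools of a strain lie near the line over a narrow range.

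Set against the parents, most BXD strains were not between them. For Hspa1a, 14 of the 37 BXD strain means lay between the parents' means, 23 lay below both and 0 lay above both. For Hspa1b, 9 lay between, 28 below both and 0 above both. For Hsph1, 5 lay between and 31 below both, and 1 (BXD43) lay above both. The lower parent, C57BL/6J, was itself above the median pool: it ranked 15 of 42 for Hspa1a on chow and 12 of 39 on high fat. For Cryab, 21 of the 37 strain means lay above both parents, 14 between and 2 below both. For Hspb1, whose parents differed by 0.006 units, 0 lay between. Each parent's mean rests on 2 pools, and the parents were not called apart for Hsph1, Cryab or Hspb1. How many strain means lie outside the parents over all genes was not counted.

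The levels of the inducible genes rose and fell together across pools. Hspa1a, Hspa1b, Hsph1, Hsp90aa1 and Dnajb1 correlated with each other on chow, on high fat and in their diet differences. These 5 genes were put together after their correlations were seen, so the group is a description and has no test of its own. Relations were computed for 28 pairs of genes in 3 sets of samples, which makes 84, and adjusted p-values are over all of them. Pairs with Hspa1a and pairs with Hspa1b are not independent of each other in these counts. On chow, 14 of the 28 pairs were called. On high fat 12 were called, and in the high fat minus chow differences 11. The share called among pairs of other genes was not counted, so these counts have no background at the same threshold. At another cut, over all pools with each diet's mean removed, few genes had an r over 0.4 with a listed gene. The share of all genes ran from 0.221% (with Hspa1a) to 1.52% (with Hsph1).

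Within the 5 genes, r ran from 0.40 to 0.92 on chow (10 of 10 pairs called), from 0.67 to 0.95 on high fat (10 of 10) and from 0.33 to 0.92 in the differences (9 of 10). The exception was Hsph1 with Dnajb1 in the differences (r = 0.33, permutation adjusted p = 0.0852). Between these 5 genes and Hspa8, Hspb1 and Cryab, r ran from -0.28 to 0.46 on chow, from -0.11 to 0.38 on high fat and from -0.17 to 0.46 in the differences. Without DBA/2J and BXD43, r within the 5 genes was 0.32 to 0.90 on chow, 0.39 to 0.91 on high fat and 0.29 to 0.90 in the differences. Of the 10 pairs, 9, 10 and 9 were still called without them.

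Hspa1a and Hspa1b were the closest pair, with r = 0.92 on chow, 0.95 on high fat and 0.92 in the differences, and rho = 0.69, 0.64 and 0.75 (permutation adjusted p = 4.2e-05 for each r; no p under 1e-05 can come from this number of permutations, so 1e-05 is the smallest they can give). As near copies they may share probe signal, which was not tested. Hsph1 and Hsp90aa1, which share no such likeness, had r = 0.76 on chow, 0.86 on high fat and 0.68 in the differences (permutation adjusted p = 4.2e-05 for each). Their rho was 0.74, 0.78 and 0.68. Leaving out the 2 pools farthest from the median of Hsph1 gave r = 0.68, 0.75 and 0.57. Strains with a larger high fat minus chow difference in Hsph1 also tended to have a larger one in Hsp90aa1.

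The small heat shock genes went together in their diet differences, and Hspb1 also went with some inducible genes on chow. Hspb1 and Cryab, whose proteins form mixed oligomers, had r = 0.36 on chow (permutation adjusted p = 0.0412) and 0.27 on high fat (adjusted p = 0.156). The chow call was lost by rank (rho = 0.29, adjusted p = 0.112) and without BXD56 and BXD83 (r = 0.22, adjusted p = 0.295). Their diet differences had r = 0.66 and rho = 0.54 (permutation adjusted p = 0.00011 for r). Without the 2 strains farthest in Hspb1 (BXD49 and BXD80) the r of the differences was 0.50. Hspb1 also went with Hspa1a on chow (r = 0.46, permutation adjusted p = 0.0065) but was not called with it on high fat (r = 0.28, adjusted p = 0.141). On chow Hspb1 was called with Hsp90aa1 (r = 0.45, permutation adjusted p = 0.00653) and Hspa1b (r = 0.41, adjusted p = 0.0178) as well. The call with Hsp90aa1 was lost by rank (rho = 0.32, adjusted p = 0.0782). On high fat neither was called (r = 0.16 and 0.25, adjusted p = 0.444 and 0.194). The differences between the diets in these r values were not tested.

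Hspa8 followed the inducible genes weakly by r, and more of these pairs were called by rank in the diet differences. Its r with Hspa1a was 0.12 on chow and 0.29 on high fat, neither called (permutation adjusted p = 0.551 and 0.132). It was called with Dnajb1 on high fat (r = 0.38, rho = 0.41, permutation adjusted p = 0.038) and in the diet differences (r = 0.46, rho = 0.54, adjusted p = 0.01). On high fat it was also called with Cryab (r = 0.44, adjusted p = 0.0127), though not by rank (rho = 0.32, adjusted p = 0.0998). By rank alone, its diet differences were called with Hspa1b, Hsph1 and Hsp90aa1 (rho = 0.45, 0.43 and 0.39, permutation adjusted p = 0.0123, 0.0177 and 0.0339). With Hspa1a they were not (rho = 0.30, adjusted p = 0.122). Hsp90aa1 was also called with it by rank on chow (rho = 0.38, adjusted p = 0.0332), but not on high fat (rho = 0.28, adjusted p = 0.152).

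**Figure D3:**
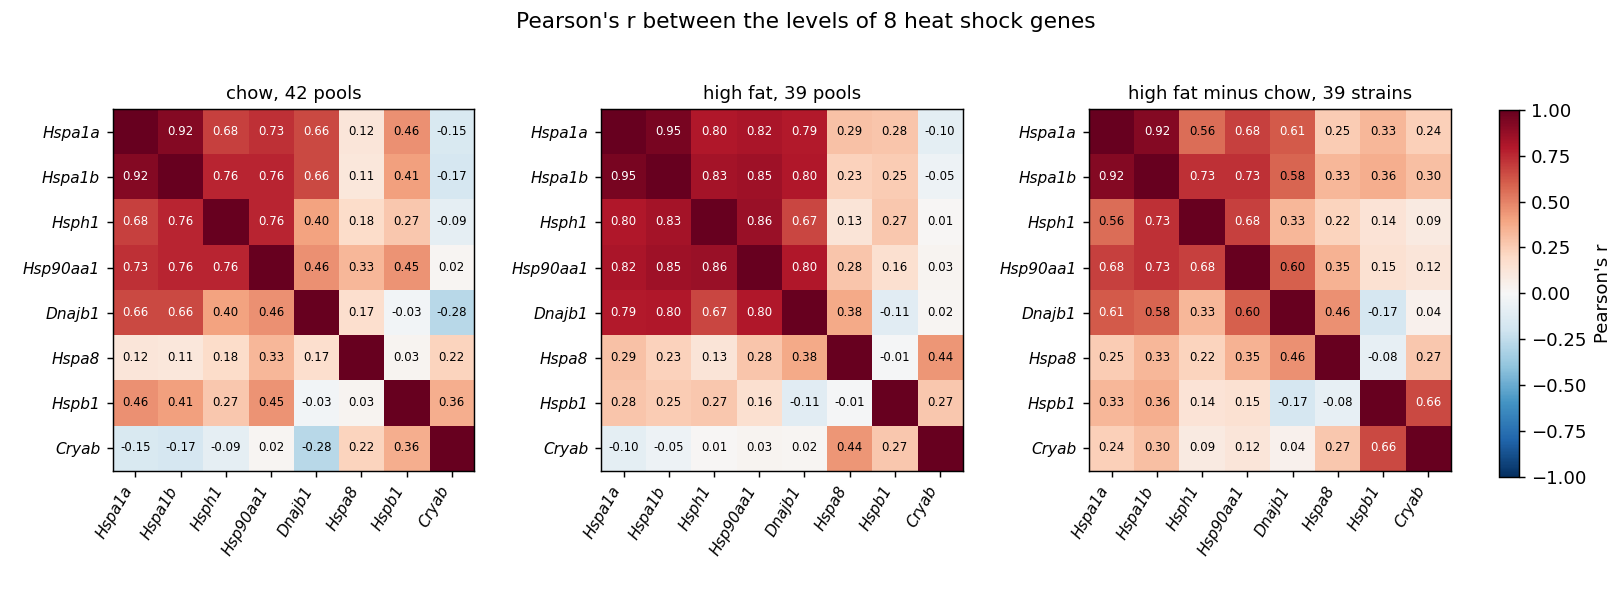
Pearson's r for each pair of the 8 genes over 42 chow pools, over 39 high fat pools and over the high fat minus chow differences of 39 strains. The block of Hspa1a, Hspa1b, Hsph1, Hsp90aa1 and Dnajb1 holds values from 0.33 to 0.95, and Hspb1 with Cryab reaches 0.66 in the differences.

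Outside the list, the genes most like the inducible ones included co-chaperones of Hsp90. Likeness was the r over 81 pools after each diet's mean was removed, among 10446 candidate genes above the median gene level. Ahsa2, a homolog of the activator of the Hsp90 ATPase, was the closest gene to each of Hspa1a (r = 0.70), Hspa1b (0.75), Hsph1 (0.82), Hsp90aa1 (0.76) and Dnajb1 (0.63). P4ha1, a catalytic subunit of collagen prolyl hydroxylase, had r = 0.64, 0.68, 0.80, 0.73 and 0.57 with the same genes. Hspa4l, an Hsp110 relative, had r = 0.62, 0.64 and 0.71 with Hspa1a, Hspa1b and Hsp90aa1. Stip1, the adaptor that links Hsp70 to Hsp90, completed the list for Hsph1 (r = 0.77), and Chordc1, an Hsp90 co-chaperone, that for Dnajb1 (r = 0.58). An r over 0.4 with Hspa1a was met by 0.221% of all genes.

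The other members had different neighbours. For Hspb1 they were Polr2e, a subunit of the RNA polymerases (r = 0.79), Trmt112, an activator of methyltransferases (0.71), and Scamp3, a membrane trafficking protein (0.69). For Cryab they were Cox6a2, the heart and muscle form of a cytochrome oxidase subunit (0.62), Syngr2 (0.57) and the ribosomal protein gene Rpl41 (0.56). For Hspa8 they were the importin Kpna3 (0.62), the mitochondrial ND3 (0.58) and Atp2a2, the calcium pump of the sarcoplasmic reticulum (0.57). Ahsa2 had r = 0.28 with Hspa8, 0.13 with Hspb1 and -0.09 with Cryab.

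Among the pathway lists, 4 of 14 measured Hsp90 co-chaperones had an r over 0.4 with Hspa1a, and so had 1 of 11 other Hsp70 and Hsp110 genes and 1 of 12 other Hsp40 genes. No member of the small heat shock, Hsp70 co-chaperone or chaperonin TRiC lists did. Bag3, which couples Hsp70 to small heat shock proteins, had r = 0.61 with Hspb1 and 0.22 with Hspa1a. Cirbp, an RNA-binding protein that is raised by cold, had r = -0.41 with Hspa1a and -0.45 with Hsp90aa1, and an r under -0.4 with Hspa1a was met by 0.0676% of all genes. Immediate early genes, which respond within minutes to handling of tissue, had a median r of 0.08 with Hspa1a over 13 genes, and the 15 clock genes had a median of 0.06. Atrial markers had a median r of 0.05 with Hspa1a. Over all genes the median was -0.00063.

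**Figure D4:**
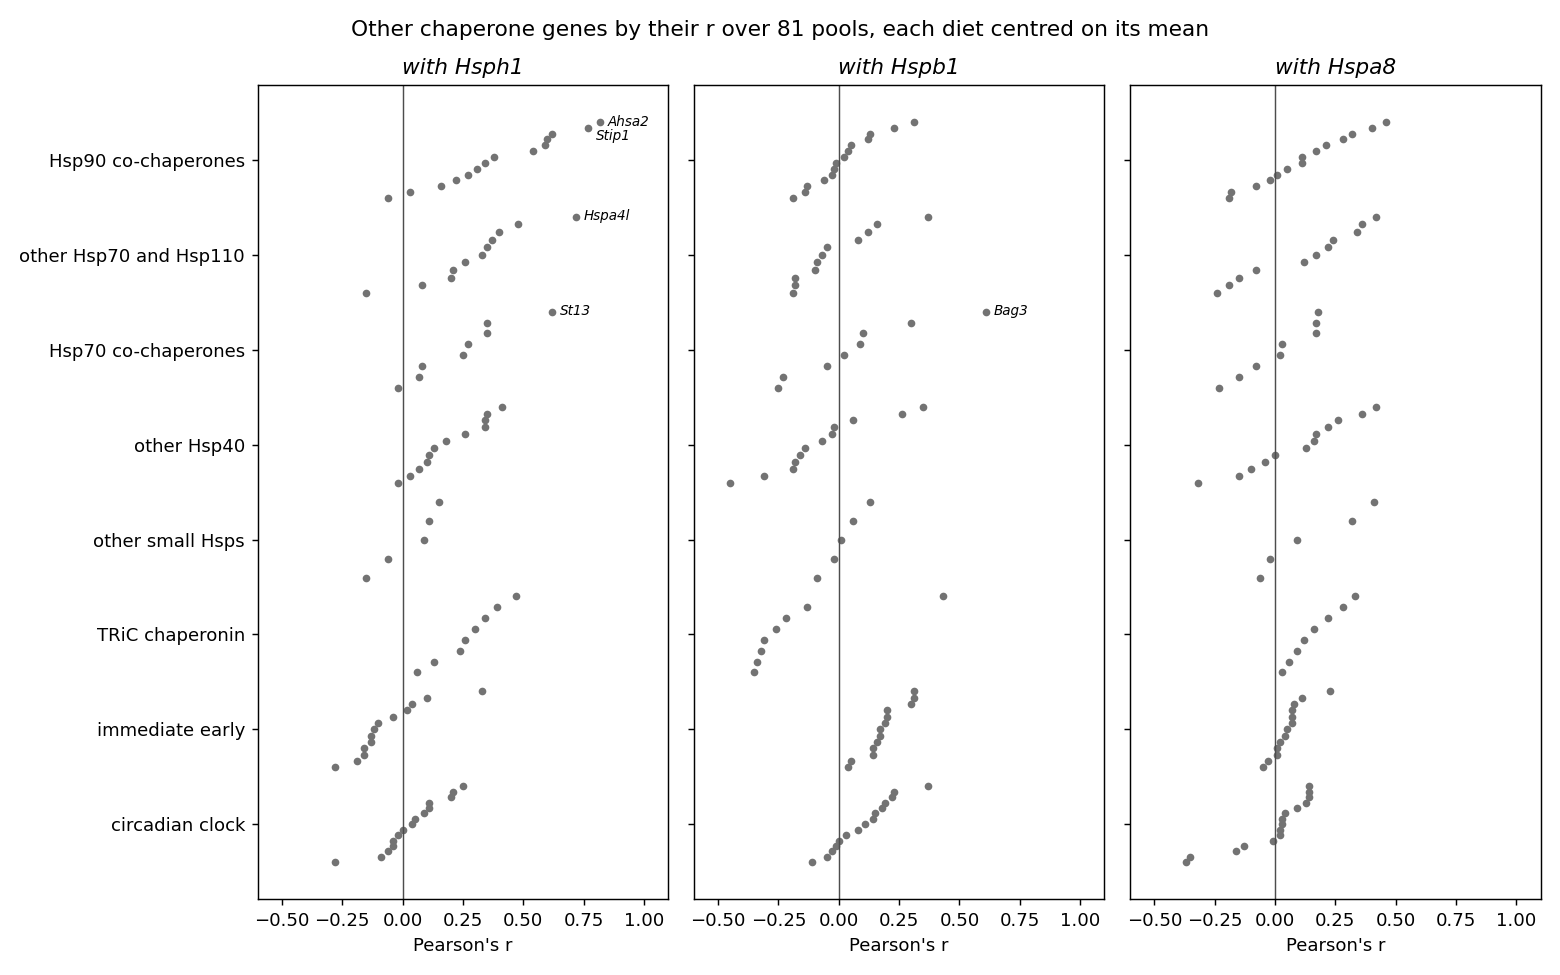
Pearson's r with Hsph1, Hspb1 and Hspa8 over 81 pools, each diet centred on its mean. Points are the measured genes of the co-chaperone, other Hsp70 and Hsp110, other Hsp40, other small heat shock and TRiC lists. The immediate early and clock lists are drawn too, and the organelle Hsp90, heat shock factor and cold lists are not. The gene with the highest r is labelled where it exceeds 0.6, as are all above 0.7: Ahsa2 (0.82), Stip1 (0.77), Hspa4l (0.72) and St13 (0.62) with Hsph1, and Bag3 (0.61) with Hspb1.

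The last comparison asked how feed moved these genes. Hsp90aa1 rose on high fat feed and Hspa8 rose slightly, and the inducible Hsp70 genes had no common direction. Hsp90aa1 had a mean of 9.82 ± 0.208 units on chow and 10.09 ± 0.231 units on high fat (SD, n = 39 strains each). It was higher on high fat in 34 of 39 strains, by 0.268 ± 0.038 units (SE; limma, adjusted p = 2.12e-07). The extremes were -0.37 units in BXD49 and 0.817 units in BXD75. Hspa8 was higher in 25 strains and lower in 13, by 0.0617 ± 0.024 units (limma, adjusted p = 0.0326). Its call was lost without BXD48, BXD84, BXD98 or DBA/2J (adjusted p up to 0.0562), and was lost or reversed in 3 other probe sets of the gene. Among all genes, 23.8% were called higher and 21.2% lower on high fat, against 2 of the 8 heat shock genes, both higher. That share is close to the share of all genes called higher.

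For the inducible Hsp70 genes single strains moved far, in either direction. Hspa1a was lower on high fat in 26 strains and higher in 13, with a mean difference of -0.208 ± 0.149 units (limma, adjusted p = 0.259). Its differences ran from -2.98 units (BXD49) and -2.39 units (BXD84) to 1.76 units (BXD95) and 1.96 units (BXD43). Hspa1b ran from -3.16 units (BXD49) to 2.93 units (BXD43), with a mean of 0.152 ± 0.189 units (adjusted p = 0.536). The SD of a strain's difference was 0.99 units for Hspa1a and 1.26 units for Hspa1b, against 0.239 units for Hsp90aa1.

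The other 4 genes were not called. Dnajb1 was higher in 27 of 39 strains, by 0.124 ± 0.06 units (limma, adjusted p = 0.0899), and passed the threshold without BXD44, BXD49 or BXD68 (lowest adjusted p 0.041). Hsph1 differed by 0.0982 ± 0.0639 units, with 23 strains higher (adjusted p = 0.213). Hspb1 differed by 0.0485 ± 0.0666 units and Cryab by -0.0154 ± 0.0233 units (adjusted p = 0.58 and 0.618), each with 21 strains higher and 18 lower.

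**Figure D5:**
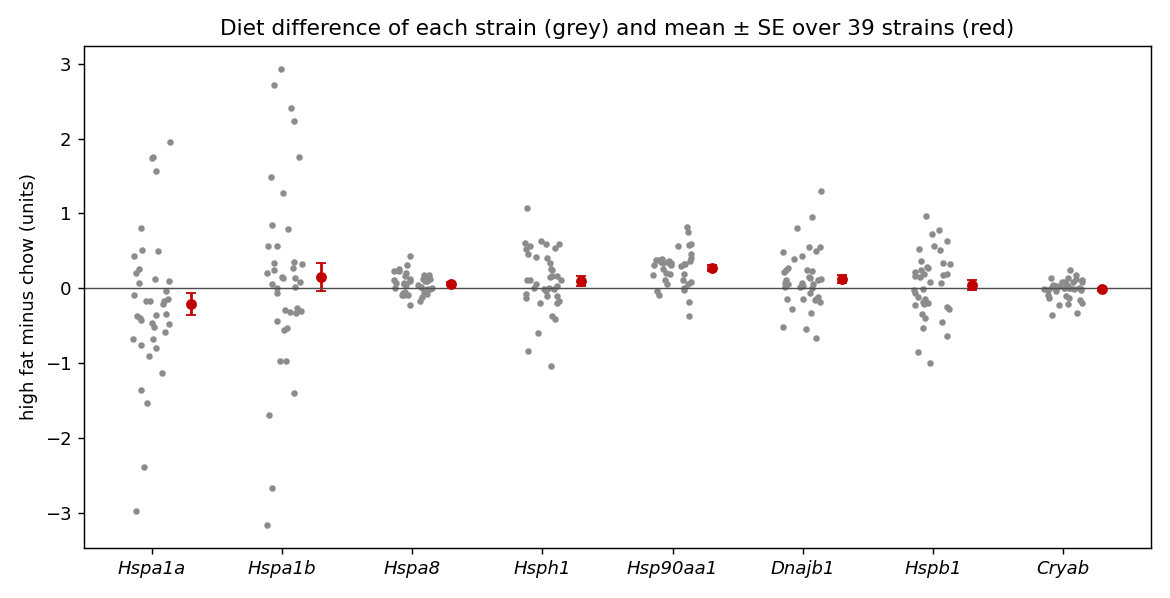
High fat minus chow difference of each of 39 strains (grey points, deposited units) and the mean with its SE from limma (red). Hsp90aa1 lies above 0 in 34 strains, and Hspa1a and Hspa1b scatter from about -3 to 3 units around 0.

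Other measures moved with diet in the same pools. Of the 92 probe sets for ERCC spike-in controls, 40.2% were called between diets. The 95th percentile of their absolute differences was 0.247 units, near the 0.268 units of Hsp90aa1. These controls were dim, with a mean of 5.96 units where the median gene mean was 8.18 units. Hsp90aa1 had a mean of 9.94 units. Whether differences of such dim controls can be compared with that of Hsp90aa1 was not tested. Of 6 mesothelial markers 5 were higher on high fat, with a list mean of 8.19 to 8.81 units on chow and 8.37 to 9.09 units on high fat. Of 6 macrophage markers and of 6 fibroblast markers 3 each were higher, and of 6 ventricular markers 3 were lower. These counts stand against the 23.8% of all genes called higher and the 21.2% called lower. Their part in the rise of Hsp90aa1 was not tested. Hsp90aa1 and Hspa8 were both still called with the atrial and brown fat marker means as covariates. Of 6 atrial markers 0 were called between diets, and of 7 brown adipocyte markers 1 was higher and 1 lower. That fit held no term for the spike-in controls or for mesothelial, macrophage, fibroblast or ventricular markers, so it cannot show their part.

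Other chaperone genes were called in both directions with diet, as were all genes (23.8% higher, 21.2% lower), and the counts per list are small against those shares. Of 14 Hsp90 co-chaperones, 4 rose on high fat, 3 fell and 7 did not pass the test. Ptges3, the p23 co-chaperone, fell in 39 of 39 strains, by 0.468 units (SE 0.0319, limma adjusted p = 1.63e-15). Its probe set was dim, with a mean of 6.89 units where the median gene mean was 8.18 units. Cacybp fell by 0.222 units. Ppp5c and Ahsa1, the activator of the Hsp90 ATPase, rose by 0.131 and 0.123 units. Of 11 other Hsp70 and Hsp110 genes, 3 rose and 3 fell. Among them Hyou1 and Hspa5, chaperones of the endoplasmic reticulum, rose by 0.226 and 0.14 units (adjusted p = 4.24e-07 and 0.000103), Hspa4 rose by 0.067 units, and Hspa1l fell by 0.111 units.

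Of 12 other Hsp40 genes, 0 rose and 3 fell (0 and 4 at an unadjusted p under 0.05), with 21.2% of all genes called lower: Dnajb4 by 0.17 units (limma, adjusted p = 2.84e-07), Dnaja3 by 0.0902 units and Dnajc7 by 0.084 units. Of 8 measured Hsp70 co-chaperones Bag4 alone changed, up by 0.218 units. Of 5 other small heat shock genes Hspb6 alone changed, and it fell by 0.0775 units. In the list of heat shock factors and mitochondrial partners, Hsf4 rose by 0.221 units and the mitochondrial Hspe1 fell by 0.159 units, out of 6 measured; Hsf1 is not analysed here. Trap1, the mitochondrial Hsp90, fell by 0.101 units, and Hsp90b1, the form of the endoplasmic reticulum, was not called. Of 8 TRiC subunits 1 rose and 2 fell. Cirbp fell by 0.168 units.

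Between the parents, the same chaperone lists held 1 called gene, where 1.28% of all genes were called higher in DBA/2J and 1.08% lower. Bag2, a nucleotide exchange factor of Hsp70, was higher in DBA/2J by 0.513 ± 0.139 units (limma, adjusted p = 0.0325). Between BXD strains, where 13.4% of all genes were called, 3 of 11 other Hsp70 and Hsp110 genes were called: Hspa1l (F = 4.5, limma adjusted p = 7.26e-05), Hspa12a (F = 4.31, adjusted p = 0.000121) and Hspa4l (F = 2.72, adjusted p = 0.0118). Of the 14 Hsp90 co-chaperones, 0 were called between strains by limma (lowest adjusted p 0.0665, for Fkbp4; 5 of 14 at an unadjusted p under 0.05).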

How the data were processed

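RNA of pooled hearts was measured on 81 Affymetrix arrays. Per the submitters' processing notes, Affymetrix Expression Console was used (version not given). The deposited value is a score per probe set (41345 in all), which the authors had rescaled to a mean of 8 and an SD of 2 on each array, as the values show. No source used here states its log base, and array depth has no count behind it, so the number of pools limits the precision. The protocol text shared by all samples names chow alone, and diet was taken from the treatment label.

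Names came from the array platform's annotation, and only those with 1 symbol were used (23521 probe sets, 22180 genes). For each gene the probe set with the highest mean was kept. Limma 3.58.1 in R 4.3.3 was fitted to all genes over 78 arrays of 39 strains with strain and diet as terms, with Benjamini-Hochberg adjustment over all genes at 0.05. The strain test is the F over 37 BXD strains; the parents' test is a contrast of the same model; the interaction was fitted to the 39 differences. Strain pairs the arrays by design: a strain's 2 arrays, with diet means removed, correlated at 0.248 in the median (arrays of unlike strains: -0.00927), and 37 of 39 pairs were over 0.1. Correlations used 100000 two-sided permutations (scipy 1.17.1). The fits and correlations were tested on simulated data.

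The members and the gene lists were chosen with earlier results of these data known. Of each pathway list at most 4 genes with the smallest adjusted p were named for a comparison, and for each member the 3 genes most like it; St13, Bag3 and Hsp90b1 were named beyond that rule, after their values were seen. Alternatives covered scaling, variance model, array weights, probe sets, dim genes, the strain block, covariates and the strains included. The labels used here name no scan date or other batch.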

Additional observations from a re-analysis of the deposited data

How the results depend on the processing

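Of 231 single-gene settings other than those that leave out 1 strain, 200 kept both the direction and the side of the threshold. Diet called 2 genes, and 1 with the mean of all single-symbol probe sets or without DBA/2J and BXD43 (chosen after seeing the data); leaving out 1 strain gave 1 to 3. The strain block pairs the arrays: with no replicate block diet also called 2, and no call changed. The strain test called 2, but 1 after quantile normalization or with marker covariates, 4 with the mean of probe sets, 0 without DBA/2J and BXD43, and 0 to 3 with 1 strain left out. For Hspa1a its adjusted p was 0.0549 after quantile normalization, 0.1 with an intensity trend, 0.0631 with array weights and 0.086 with covariates; Cryab was called with arrays centred on their median (0.0241), a trend (0.00679), array weights (0.0393), the mean of probe sets (3.31e-07) and genes above the median alone (0.022), and without BXD48 or BXD80 (lowest 0.0377). Hsp90aa1 was called without BXD49 (0.0421). The parents' test called 2, and 1 with the trend. Pairs called ran from 11 to 18 on chow, 11 to 16 on high fat and 11 to 14 in the differences. Hspa8 changed sign: its diet difference was -0.00605 and -0.0529 units in other probe sets, and DBA/2J minus C57BL/6J was 0.018 after quantile normalization, 0.326 with the mean of probe sets and 0.052, 0.152 and 1.14 in other probe sets. The interaction of Cryab was -0.0445 after quantile normalization. The cause of these changes was not tested. No background or detection call was used here, so how far dim signal limits a value is unknown.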

Other observations

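Other probe sets that carry the symbol of Hspa8 or Cryab alone followed strain far more closely than the brightest one did. For Hspa8, 3 further probe sets had r between -0.21 and 0.15 with the one described above. In the dimmest of them (mean 10.93 units) the pools of C57BL/6J read 10.59 and 10.53 units and those of DBA/2J 11.65 and 11.75 units, a difference of 1.14 ± 0.155 units (limma, adjusted p = 1.59e-06). Its BXD strain means fell on both sides of a gap: 17 strains lay at 10.57 units or below and 20 at 11.01 units or above. The intraclass correlation was 0.954 and the strain F was 44 (limma, adjusted p = 3.29e-21), against 0.203 and 1.16 for the brightest probe set. The other 2 of these probe sets had intraclass correlations of 0.682 and 0.681. What lies behind this was not tested.

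A second probe set of Cryab (mean 11.07 units) had an intraclass correlation of 0.816 and a strain F of 9.83 (limma, adjusted p = 1.25e-09). It was not called between the parents (11.04 and 11.29 units in C57BL/6J, 11.09 and 10.93 units in DBA/2J; adjusted p = 0.757), while BXD strain means ran from 10.50 to 11.71 units. Its r with the brightest Cryab probe set was 0.36 on chow and 0.49 on high fat. A second probe set of Hspb1 (mean 8.42 units) was higher on high fat by 0.142 ± 0.0465 units (limma, adjusted p = 0.0113), where the one described above was not called.

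Of 13 immediate early genes 11 were called between the BXD strains, against 13.4% of all genes, among them Egr1 (F = 8.13, intraclass correlation 0.756) and Zfp36 (F = 6.27, 0.696). Over 81 pools the r of the 13 with Hspa1a ran from -0.05 (Zfp36) to 0.33 (Jun), with 0.02 for Egr1. With Hsph1 it ran from -0.28 (Zfp36) to 0.33 (Ier3), and with Hsp90aa1 from -0.33 (Zfp36) to 0.20 (Ier3).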
